A study of Mus musculus with 13 samples.

Results

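The genes described here are 8 factors through which the circadian clock acts on other genes: Dbp, Tef, Hlf, Nfil3, Usp2, Bhlhe40, Bhlhe41 and Rora. They were chosen by name. A probe set is a group of short probes summarized as 1 value, and whether it also reads other transcripts was not tested. Every probe set whose single listed symbol was one of these 8 was taken. This gave 22 probe sets of 45037 tested and 8 genes of 18193 named. Expression had been measured on arrays in 1 brain hemisphere per mouse, from 6 creatine-fed and 7 untreated mice, all male and of the inbred strain C3HeB/FeJ. Pellets of the creatine-fed mice held 1% creatine for 6 months, and untreated mice ate pellets of equal calories that lacked it. Feeding began at 10 to 12 weeks of age, with 12 hours of light and 12 of dark each day. The hour at which brains were taken is not given in the sources used here, and daily rhythm could therefore not be compared between the groups.

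Cells keep daily time through a loop in which the activators CLOCK and BMAL1 switch on their own repressors, the Per and Cry proteins. Output factors carry that rhythm to other genes. Dbp, Tef and Hlf encode the PAR bZIP activators, which bind a DNA element called the D-box, and Nfil3 (also E4bp4) encodes a repressor at the same element. Bhlhe40 and Bhlhe41 (Dec1 and Dec2) encode repressors that compete with CLOCK and BMAL1 at the E-box. Rora encodes a nuclear receptor that activates Bmal1 through the ROR element and is also needed by Purkinje cells of the cerebellum. Usp2 encodes a deubiquitinase whose transcript cycles in many mouse tissues. In mice, loss of all 3 PAR bZIP activators leads to epileptic seizures.

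The stretches in front of these genes were searched for the 3 elements, because the E-box and the D-box tie the output factors to the loop. The windows ran from 250 bases before to 50 bases after a gene start in RefSeq's GRCm38.p6 annotation, and windows were listed for 7 of the 8 genes (all but Bhlhe40). An E-box was searched as CACGTG, a D-box as TTATGTAA or TTACGTAA and the core of a ROR element as TAGGTCA, on both strands. Both windows of Tef and the window of Bhlhe41 held an E-box, as did 7.15% of all 32851 windows, and the window of Nfil3 held a ROR element core on the opposite strand 12 bases before the start (2.61% of windows). Neither Hlf nor Usp2, the members with the 2 smallest p-values below, had a match, nor did Dbp and Rora. Per3, a gene of the core loop described further on, held 2 D-boxes, which 1.06% of windows held at least once. No other core loop window is shown, and Per3 had the smallest unadjusted limma p of that list (0.00491). Whether these D-boxes bear on its level was not tested. A missing match says only that these letters are not in the window. The 6 windows that follow are printed 5′ to 3′ on the gene's strand with matched letters in capitals, Hlf and Usp2 as the members with the smallest p-values, Tef and Bhlhe41 for the E-box and Per3 for the D-box.
Hlf (chr11:90390868-90391167, minus strand): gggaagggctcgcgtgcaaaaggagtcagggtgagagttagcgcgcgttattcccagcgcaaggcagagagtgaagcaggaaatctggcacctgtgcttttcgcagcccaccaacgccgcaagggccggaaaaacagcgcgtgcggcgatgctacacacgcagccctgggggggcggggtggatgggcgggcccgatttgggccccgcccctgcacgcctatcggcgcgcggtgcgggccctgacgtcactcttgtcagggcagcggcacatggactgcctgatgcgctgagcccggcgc
Usp2 (chr9:44084670-44084969, plus strand): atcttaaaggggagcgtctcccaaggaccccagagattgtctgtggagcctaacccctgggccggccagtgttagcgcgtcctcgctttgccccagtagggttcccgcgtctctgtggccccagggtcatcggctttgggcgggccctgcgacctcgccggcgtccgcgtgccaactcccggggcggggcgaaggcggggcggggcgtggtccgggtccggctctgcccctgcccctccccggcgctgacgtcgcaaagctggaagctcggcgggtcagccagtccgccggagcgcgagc
Tef, first window (chr15:81802423-81802722, plus strand): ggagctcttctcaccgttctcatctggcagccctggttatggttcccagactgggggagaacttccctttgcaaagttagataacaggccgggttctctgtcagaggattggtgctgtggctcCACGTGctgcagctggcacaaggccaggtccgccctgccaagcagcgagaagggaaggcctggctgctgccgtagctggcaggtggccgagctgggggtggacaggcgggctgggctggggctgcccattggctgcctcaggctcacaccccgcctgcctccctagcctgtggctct
Tef, second window (chr15:81811164-81811463, plus strand): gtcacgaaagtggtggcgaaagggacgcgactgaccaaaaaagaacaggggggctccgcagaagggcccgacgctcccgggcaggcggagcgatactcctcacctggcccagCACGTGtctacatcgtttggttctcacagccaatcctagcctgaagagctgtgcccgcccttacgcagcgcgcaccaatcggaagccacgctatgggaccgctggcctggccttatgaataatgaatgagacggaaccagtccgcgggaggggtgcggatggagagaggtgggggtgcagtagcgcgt
Bhlhe41 (chr6:145865371-145865670, minus strand): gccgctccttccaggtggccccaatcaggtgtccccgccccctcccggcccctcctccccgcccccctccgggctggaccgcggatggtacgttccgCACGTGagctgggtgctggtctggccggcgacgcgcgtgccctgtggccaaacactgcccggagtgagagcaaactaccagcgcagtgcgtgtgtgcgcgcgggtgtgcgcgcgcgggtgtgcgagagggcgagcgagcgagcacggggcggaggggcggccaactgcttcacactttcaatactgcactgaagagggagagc
Per3 (chr4:151044616-151044915, minus strand): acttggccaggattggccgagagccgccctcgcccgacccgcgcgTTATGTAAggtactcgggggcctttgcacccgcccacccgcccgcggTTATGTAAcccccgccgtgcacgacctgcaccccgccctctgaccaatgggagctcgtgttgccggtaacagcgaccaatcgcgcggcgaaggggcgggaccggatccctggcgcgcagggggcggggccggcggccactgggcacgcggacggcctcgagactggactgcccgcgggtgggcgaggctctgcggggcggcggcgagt

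Values are array intensities on a linear scale. The authors' table gives array medians between 37 and 45, and intensities of different probe sets cannot be set against each other. Differences are those of log2(intensity + 16), creatine-fed minus untreated, so they understate the change of dim probe sets. Counts of higher and lower probe sets or genes go by the sign of this log2 difference. All 13 hemispheres read as brain tissue: the summed intensity of 6 neuronal markers ran from 22394 to 25683 in creatine-fed and from 23133 to 25476 in untreated mice. The hemispheres differed in their markers of brain regions, and how they were dissected is not given in the sources used here. Untreated replicate 3 stood apart, with 27 for the Purkinje cell gene Pcp2 where the other mice had 736 to 2881, and its summed intensity of 6 cerebellar markers was 2348. Across the groups that sum ran from 5406 to 12296 in creatine-fed and from 2348 to 15612 in untreated mice (5 of 6 markers higher). Summed brainstem markers (5 genes) ran from 80 to 227 in creatine-fed and from 98 to 406 in untreated mice (5 of 5 lower). Summed olfactory bulb markers ran from 159 to 288 in creatine-fed and from 143 to 657 in untreated mice (4 of 4 lower), and cortex markers from 3127 to 3777 in creatine-fed and from 2564 to 3828 in untreated mice (5 of 5 higher). Oligodendrocyte markers ran from 16024 to 18097 in creatine-fed and from 17450 to 21747 in untreated mice (4 of 5 lower), and microglial markers from 1819 to 1988 in creatine-fed and from 1653 to 2026 in untreated mice (6 of 6 higher). Astrocyte markers were lower at 5 of 6, endothelial at 3 of 5, choroid plexus at 4 of 6 and neuronal at 2 of 6. Of all genes, 41.5% were higher at their brightest probe set, so most were not. No marker gene in these lists passed the adjusted p, and apart from the cerebellar and brainstem lists, used as covariates, their part in the results was not tested. In tissue of this kind, fewer cells of a type and less RNA per cell cannot be told apart.

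Whether creatine feeding was followed by different levels of the output factors was tested in the fit over all probe sets. No member probe set passed limma's adjusted p of 0.05, at which 0.00888% of all probe sets passed. At an unadjusted p under 0.05, 5 of the 22 were higher in creatine-fed mice and 0 lower, where 4.17% of all probe sets were higher and 7.7% lower. These 5 came from 4 genes (Hlf with both of its probe sets, Usp2, Dbp and Rora). The log2 difference was above 0 at 16 of 22 member probe sets, or 72.7%, against 42.2% of all probe sets. Of the 22, 21 were among the 22519 brightest probe sets, whereas the shares of all probe sets include dim ones. These shares were not taken among bright probe sets alone. The median log2 difference was 0.13 over the 22 and -0.03 over all probe sets, and 0.18 over the brightest probe set of each gene against -0.03 over all genes. At those brightest probe sets it was above 0 for 6 of 8 genes, against 41.5% of all genes. When creatine-fed replicate 2 and untreated replicate 3 were both left out, the median over the 22 was 0.0535. The member probe sets come from few genes, and 9 of them read Rora, so they do not count as separate observations.

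**Figure D1:**
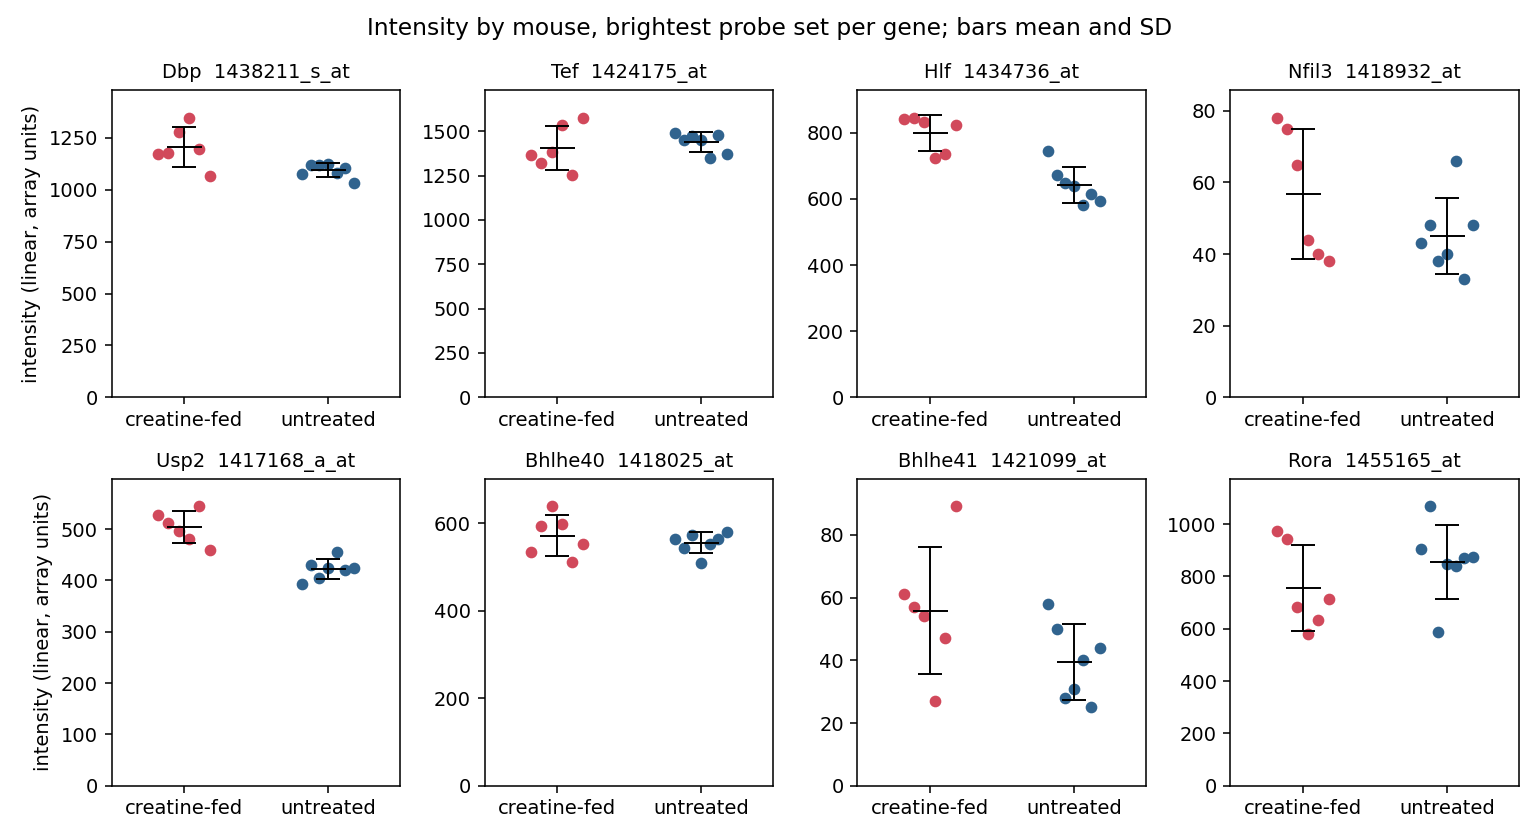
Linear array intensity of each gene at its brightest probe set, 1 point per mouse, creatine-fed (n = 6) left of untreated (n = 7), with mean and SD. The groups do not overlap for Usp2 and overlap for the other genes, among them Hlf, where 4 of the 6 creatine-fed mice lie above all untreated mice.

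Among the PAR bZIP activators, Hlf had the largest difference. At 1434736_at its intensity ran from 725 to 845 with a median of 827.5 in creatine-fed mice, against 583 to 745 with a median of 640.0 in untreated mice. Each of the 6 creatine-fed values exceeded the untreated mean, 4 of them every untreated value, and the overlap came from untreated replicate 1 alone. Means were 800.3 ± 55.1 in creatine-fed and 643 ± 55.0 in untreated mice (SD, n = 6 and 7), which is 24.5% higher, with a log2 difference of 0.31 ± 0.07 (SE, adjusted p = 0.152). This probe set passed in 2 of 25 alternatives. These were a fit on the 22519 brightest probe sets (adjusted p = 0.0495, 0.608% called) and eBayes set to trend and robust (adjusted p = 0.0245, 0.357% called). In the other 23 it did not pass, with an adjusted p up to 0.297. The difference was 0.31 with cerebellar markers as a covariate (adjusted p = 0.137) and 0.32 with brainstem markers (adjusted p = 0.267).

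The other probe set of Hlf, 1434735_at, gave 459 to 555 with a median of 521.0 in creatine-fed mice, against 421 to 478 with a median of 471.0 in untreated mice. Here too 4 of the 6 creatine-fed values exceeded every untreated value, with a log2 difference of 0.15 ± 0.07 (adjusted p = 0.375).

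Dbp, whose transcript has one of the widest daily swings known in mouse tissues, was higher on average at both probe sets without passing. At 1438211_s_at it ran from 1067 to 1346 with a median of 1185.5 in creatine-fed mice, against 1035 to 1125 with a median of 1106.0 in untreated mice. Of the creatine-fed mice, 5 of 6 lay above every untreated mouse and replicate 6 lay within the untreated range. The log2 difference was 0.13 ± 0.06 (adjusted p = 0.422). At 1418174_at the creatine-fed mice ran from 648 to 845 (median 793.5) and the untreated mice from 630 to 771 (median 652.0), with a log2 difference of 0.19 ± 0.08 (adjusted p = 0.373). Here 3 creatine-fed mice exceeded all untreated mice. With brainstem markers as a covariate the difference at 1418174_at was 0.10 (adjusted p = 0.747), the one setting that moved it by more than 1.5 times. The spread of Dbp between mice was small: the highest of the 13 mice had 1.30 times the lowest at 1438211_s_at and 1.34 times at 1418174_at.

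Tef, the third activator of the family, showed no difference beyond its spread. At 1424175_at it ran from 1252 to 1575 (median 1375.5) in creatine-fed mice and from 1348 to 1489 (median 1452.0) in untreated mice. Creatine-fed mice lay on both sides, 2 above and 2 below every untreated mouse. The log2 difference was -0.04 ± 0.07 (adjusted p = 0.884), and it turned to 0.016 after centring each array on its median. The other probe sets differed by -0.06 ± 0.08 at 1450184_s_at and 0.11 ± 0.13 at 1438033_at, neither near the threshold. The value at 1438033_at was 0.29 with brainstem markers as a covariate and 0.031 without creatine-fed replicate 1.

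Nfil3, the repressor at the D-box, was dim, above the array median on 8 of 13 arrays. It ran from 38 to 78 (median 54.5) in creatine-fed mice and from 33 to 66 (median 43.0) in untreated mice. Creatine-fed replicates 1 and 2, at 78 and 75, exceeded every untreated mouse, and the other creatine-fed mice lay within the untreated range. The log2 difference was 0.23 ± 0.16 (adjusted p = 0.599). It was 0.15 without creatine-fed replicate 1, 0.13 without creatine-fed replicate 2 and untreated replicate 3, and 0.46 with brainstem markers as a covariate.

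**Figure D2:**
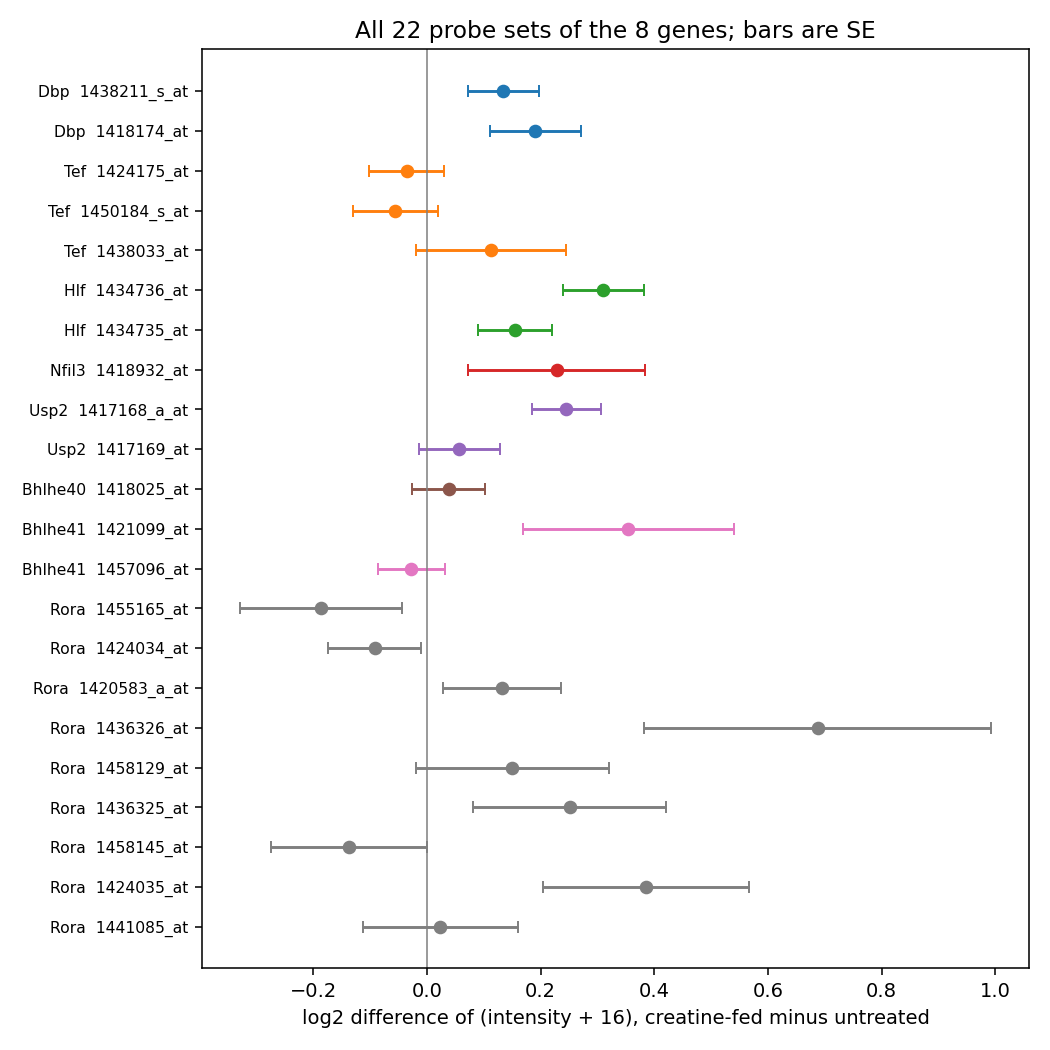
Log2 difference of (intensity + 16), creatine-fed minus untreated, with SE, for all 22 probe sets in the order of the genes in the text. Both Hlf and both Dbp probe sets lie right of 0, while the 9 of Rora run from -0.19 to 0.69.

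Usp2 gave the only member probe set at which the groups did not overlap, which was so for 0.56% of all probe sets. At 1417168_a_at the creatine-fed mice ran from 460 to 544 (median 504.0) and the untreated mice from 393 to 456 (median 425.0). The lowest creatine-fed mouse, replicate 6, was thus just above the highest untreated mouse, replicate 5. Means were 503.5 ± 30.8 in creatine-fed and 422 ± 19.9 in untreated mice (SD, n = 6 and 7), 19.3% higher, with a log2 difference of 0.25 ± 0.06 (SE, adjusted p = 0.173). That adjusted p ran from 0.0506 to 0.331 over the alternatives, so Usp2 passed in none of them.

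The second Usp2 probe set, 1417169_at, ran from 395 to 529 (median 423.5) in creatine-fed and from 388 to 448 (median 411.0) in untreated mice. Apart from creatine-fed replicate 5, at 529, its values overlapped (log2 difference 0.06 ± 0.07, adjusted p = 0.804). After these values were seen, the log2 ratio of the 2 probe sets within each array was compared. It averaged 0.20 ± 0.10 in creatine-fed and 0.02 ± 0.08 in untreated mice (SD, n = 6 and 7), a difference of 0.19. The same ratio differed by 0.16 for Hlf and by -0.06 for Dbp. These ratios are descriptions only. An exact test over 1716 splits of the mice was run, but its p-values are not relied on. The separation of 1 Usp2 probe set and the overlap of the other had prompted the ratios. Probe positions are not in the files, so the probe sets were not assigned to isoforms.

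The E-box repressors were not separated by diet. Bhlhe40 ran from 512 to 638 (median 573.0) in creatine-fed and from 510 to 580 (median 563.0) in untreated mice, with a log2 difference of 0.04 ± 0.07 (adjusted p = 0.871). Bhlhe41 at 1421099_at was dim and varied widely, from 27 to 89 (median 55.5) in creatine-fed and from 25 to 58 (median 40.0) in untreated mice. Its log2 difference of 0.35 ± 0.19 did not pass (adjusted p = 0.485), and without creatine-fed replicate 6, the highest mouse, it was 0.24 (0.23 if 50 was added before the log2). Its other probe set, 1457096_at, read 1 to 2 in creatine-fed and 1 to 4 in untreated mice, below the median of every array.

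Rora was read by 9 probe sets that did not share a direction: the log2 difference was above 0 at 6 and below 0 at 3. The widest difference was at 1436326_at, which ran from 111 to 386 (median 339.0) in creatine-fed and from 92 to 333 (median 167.0) in untreated mice. Of the creatine-fed mice, 4 of 6 exceeded every untreated mouse, and replicate 4, at 111, was lower than all but 2 untreated mice. The log2 difference was 0.69 ± 0.31 (adjusted p = 0.396), 0.94 without creatine-fed replicate 4, 0.55 without untreated replicate 3 and 1.05 with brainstem markers as a covariate. The brightest probe set, 1455165_at, went the other way, with 581 to 974 (median 697.5) in creatine-fed and 589 to 1067 (median 871.0) in untreated mice. Its log2 difference was -0.19 ± 0.14 (adjusted p = 0.652), and it turned to 0.060 with brainstem markers as a covariate. The other 7 probe sets of Rora lay between -0.14 and 0.38. Like the brightest, they moved with single mice and covariates: 1458129_at differed by 0.15, by 0.038 without untreated replicate 3 and by 0.41 with brainstem markers as a covariate.

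Rora intensity followed the cerebellar markers from mouse to mouse. The relation was looked for after untreated replicate 3 had been seen to lack them, over 22 relations, 1 per member probe set, on log2 values centred within each group. All 9 Rora probe sets correlated positively with the summed cerebellar markers over the 13 mice. By Pearson's r 8 passed a permutation test adjusted over the 22, and 4 of these also passed by Spearman's rho. The share of all probe sets that would pass was not computed, so whether the relation is particular to Rora was not tested. At 1458129_at Pearson's r was 0.89 (permutation p = 0.00028, adjusted p = 0.00363) and Spearman's rho 0.81 (permutation p = 0.00231, adjusted p = 0.0169). At the brightest probe set r was 0.82 (permutation p = 0.00088, adjusted p = 0.00387) and rho 0.78 (permutation p = 0.00187, adjusted p = 0.0169). Without creatine-fed replicate 4 and untreated replicate 3, the mice farthest from the median sum, r was 0.68 at 1458129_at, 0.61 at 1455165_at and between 0.13 and 0.70 over all 9. Without untreated replicate 3 alone, r was 0.84 at 1458129_at, 0.73 at 1455165_at and between 0.07 and 0.84 over all 9. The p-values include the mouse that prompted the search and were not computed without it, so they are descriptions.

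Of the 13 member probe sets of other genes, 2 passed the same test: 1438033_at of Tef (r = 0.51, permutation p = 0.0224, adjusted p = 0.0493) and the very dim 1457096_at of Bhlhe41 (r = -0.83, permutation p = 0.00788, adjusted p = 0.0217), which rests on intensities of 1 to 4. Their rho was 0.75 (adjusted permutation p = 0.0216) and -0.66 (adjusted permutation p = 0.0641), and without the same 2 mice r was 0.87 and -0.43. Hlf at 1434736_at had an r of 0.25 (permutation p = 0.435, adjusted p = 0.504) and a rho of 0.61 (adjusted p = 0.0786). Usp2 at 1417168_a_at had an r of 0.40 (permutation p = 0.165, adjusted p = 0.259) and a rho of 0.32 (adjusted p = 0.367). With the cerebellar markers as a covariate the creatine-fed minus untreated difference of Rora was 0.65 at 1436326_at (adjusted p = 0.236) and -0.21 at 1455165_at (adjusted p = 0.373).

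**Figure D3:**
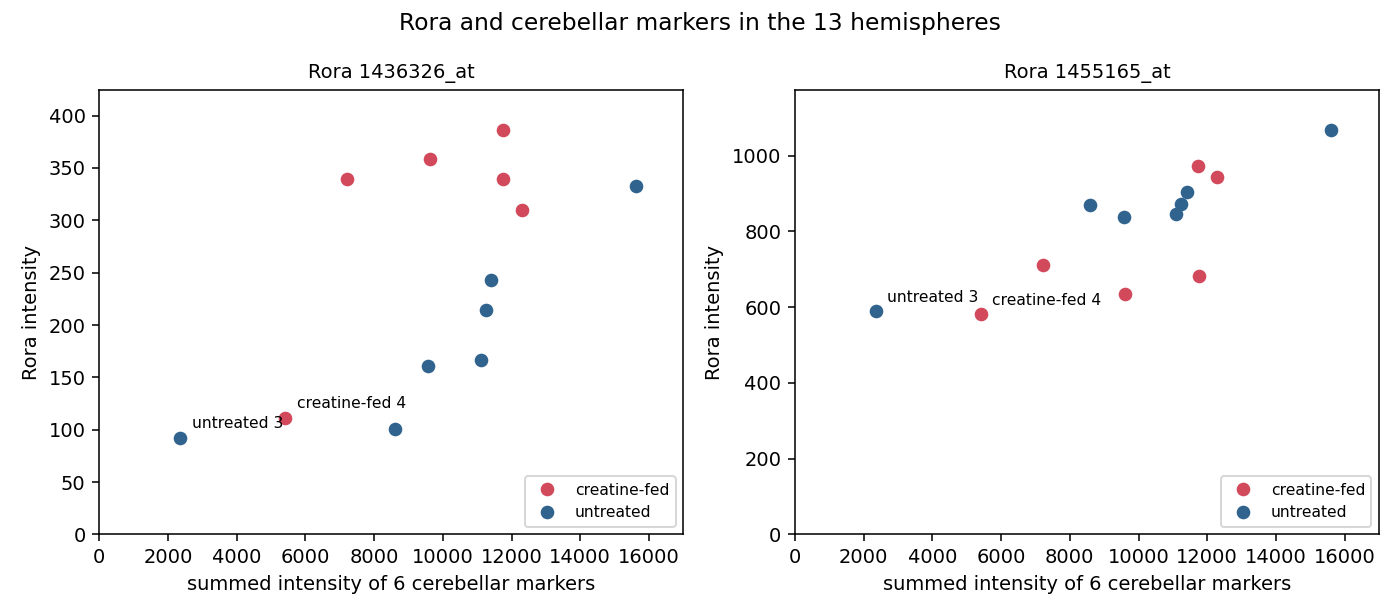
Rora intensity at 2 probe sets against the summed intensity of 6 cerebellar markers, 1 point per mouse, creatine-fed and untreated. Untreated replicate 3 (sum 2348) and creatine-fed replicate 4 (sum 5406) lie at the left and low on both Rora axes.

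The members varied from mouse to mouse without a common pattern. Over the 13 mice, log2 values centred within each group were correlated for all 28 pairs of genes at their brightest probe sets. Pearson's r was positive for 16 pairs and negative for 12, and 3 pairs had an unadjusted permutation p under 0.05. One pair passed after adjustment over the 28. Tef (1424175_at) and Usp2 (1417168_a_at) were opposed, with r = -0.87 (permutation p = 0.00042, adjusted p = 0.0118) and rho = -0.87 (permutation p = 0.00061, adjusted p = 0.0171). Without the 2 mice farthest from the median of Tef r was -0.75, and it was -0.93 among the 6 creatine-fed and -0.80 among the 7 untreated mice.

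The relation of Tef and Usp2 depended on how the arrays were scaled and on the probe sets. After centring each array on its median r was -0.39 (adjusted permutation p = 0.466), and after quantile normalization it was -0.82 (adjusted permutation p = 0.0504). With all probe sets of a gene averaged, r was -0.40 (adjusted permutation p = 0.714). The other 2 Tef probe sets had r from -0.37 to 0.24 with the Usp2 probe sets, against -0.79 between 1424175_at and 1417169_at. Without untreated replicate 5, r was -0.86 but the adjusted permutation p was 0.0756.

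**Figure D4:**
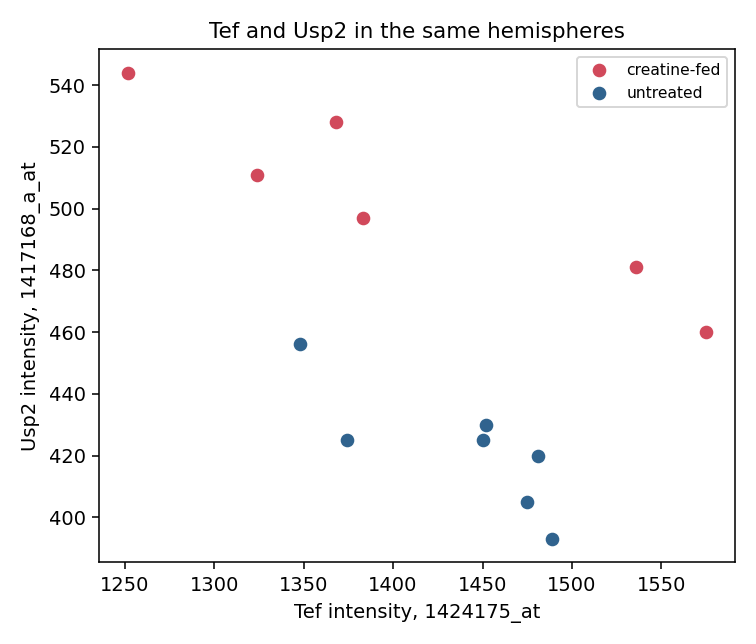
Usp2 intensity against Tef intensity in the same hemisphere, 1 point per mouse, creatine-fed and untreated; neither axis starts at 0. Within both groups Usp2 is lower where Tef is higher (r = -0.93 in creatine-fed and -0.80 in untreated mice), and the creatine-fed mice lie above the untreated mice.

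Dbp and Bhlhe41 had an r of -0.76 (permutation p = 0.00914, adjusted p = 0.128) and a rho of -0.69, and r was -0.37 without the 2 mice farthest from the median of Dbp. Hlf and Bhlhe41 had an r of 0.60 (permutation p = 0.0362, adjusted p = 0.338) and a rho of 0.63. Among the PAR bZIP activators themselves, r was 0.05 for Dbp and Tef, -0.21 for Dbp and Hlf and 0.24 for Tef and Hlf, none near the threshold.

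Genes with the most similar course over the 13 mice, after centring within groups, were looked up among the 11147 genes whose probe set was among the 22519 brightest. For Dbp they were Dlg1, a scaffold of synapses and cell junctions (r = 0.93), Tnks2, a tankyrase (r = 0.93), and Wasf2, a regulator of actin (r = 0.92). For Hlf they were the nuclear pore gene Nup210 (r = 0.94), the autophagy protease Atg4d (r = 0.87) and the sodium-proton exchanger Slc9a5 (r = 0.86). For Tef they were the inositol phosphate kinase Ip6k1 (r = 0.96), Palm (r = 0.92) and Cep170b (r = 0.89), and for Usp2 Haus7 (r = 0.88), the lipoic acid synthase Lias (r = 0.86) and the DNA damage kinase Atr (r = 0.86). None of these 12 is a member or in a clock list used here, and their own differences between the diets ran from -0.14 to 0.13. The points share the arrays' scaling and the make-up of each hemisphere, and these r values are descriptions only.

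The rest of the clock was not called either. Of 15 measured genes of the core loop, 0 passed the adjusted p, as 0.0055% of all genes did, and at an unadjusted p under 0.05 1 was higher and 2 lower, where 11.2% of all genes passed in either direction. The median difference over the 15 was 0.01. Per3, a period gene with 2 D-boxes in the window printed above, ran from 261 to 343 (median 301.5) in creatine-fed and from 323 to 394 (median 361.0) in untreated mice at 1421087_at. Every creatine-fed value was under the untreated mean, though the ranges overlapped, with a log2 difference of -0.25 ± 0.07 (adjusted p = 0.234). The log2 difference was below 0 at 5 of its 6 probe sets. Nr1d2, a repressor at the ROR element, differed by -0.18 ± 0.08, Rorb, a relative of Rora, by 0.24 ± 0.09 and Csnk1d, a kinase of the Per proteins, by 0.14 ± 0.07. The remaining 11 genes, among them Clock, Bmal1 (listed as Arntl), Per1, Per2 and Nr1d1, lay between -0.06 and 0.23 at their brightest probe sets. Over all 36 probe sets of the 15 genes, 4 were higher and 4 lower at an unadjusted p under 0.05. Of all probe sets, 4.17% were higher and 7.7% lower. Among the 36, picked after their values were seen, Csnk1d at 1418889_a_at ran from 253 to 309 in creatine-fed and from 220 to 249 in untreated mice. The groups did not overlap there, which was so for 0.56% of all probe sets (log2 difference 0.20 ± 0.07, adjusted p = 0.253). Rorb at 1455799_at differed by 0.69 ± 0.28 (adjusted p = 0.348) and Per3 at 1441445_at by -0.36 ± 0.13 (adjusted p = 0.283). Per2 at 1457350_at differed by -0.29 ± 0.09 (adjusted p = 0.251), with each creatine-fed value under the untreated mean. Per2 differed by -0.06 at 1417602_at and by 0.05 at 1417603_at. Arntl at 1457740_at differed by -0.24 ± 0.12 (adjusted p = 0.444), and by -0.01 at its brightest probe set. At 1457740_at it read 11 to 28 in creatine-fed and 16 to 31 in untreated mice, under the median of every array.

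Known target genes of the PAR bZIP factors, most of them established in mouse liver, did not pass. Of 7 measured, 2 were higher and 5 lower at their brightest probe sets (median -0.06), and 4 were below the array median on every array. Ppara, a nuclear receptor of fatty acid metabolism, was counted as lower from 1439675_at (-0.06), but its dimmer 1449051_at went the other way. That probe set, picked after its values were seen, read 9 to 42 in creatine-fed and 2 to 9 in untreated mice, under the median of every array. Of the creatine-fed mice, 5 of 6 exceeded every untreated mouse (log2 difference 0.87 ± 0.18, adjusted p = 0.128). Pdxk, the kinase that makes active vitamin B6 and a target of these factors in mouse brain, read 1083 ± 45.2 in creatine-fed and 1105 ± 56.5 in untreated mice, a log2 difference of -0.03 ± 0.06. Alas1, of heme synthesis, differed by 0.07 ± 0.07, while Cyp7a1 (-0.33), Ces1g (-0.13) and Nr1i3 (-0.06) read at most 23 in any mouse.

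Other clock-controlled genes, 12 measured, were also split, 6 higher and 6 lower at their brightest probe sets (median 0.00). Klf10, a clock-controlled zinc-finger factor, ran from 144 to 172 (median 159.0) in creatine-fed and from 109 to 160 (median 130) in untreated mice. Each creatine-fed value exceeded the untreated mean, with overlapping ranges (log2 difference 0.25 ± 0.09, adjusted p = 0.281). Noct, which encodes the rhythmic enzyme nocturnin, differed by 0.16 ± 0.08, Tsc22d3, also induced by glucocorticoids, by -0.14 ± 0.07 and the neuropeptide gene Avp by -0.30 ± 0.20. The remaining 8 lay between -0.13 and 0.12 at their brightest probe sets.

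Among those 8, Klf9, which encodes a transcription factor induced by glucocorticoids, had 3 of 7 probe sets at an unadjusted p under 0.05, all higher. They are given here after their values were seen. Over all 28 probe sets of the 12 genes, 4 were higher and 2 lower at that threshold. Of all probe sets tested, 4.17% were higher and 7.7% lower. At 1428289_at Klf9 ran from 778 to 892 (median 843.5) in creatine-fed and from 666 to 757 (median 691) in untreated mice. The groups did not overlap, which was so for 0.56% of all probe sets. The log2 difference was 0.26 ± 0.06 (limma adjusted p = 0.135, lower than that of any member). Klf9 differed by 0.29 ± 0.07 at 1456341_a_at (adjusted p = 0.165) and by 0.29 ± 0.09 at 1422264_s_at (adjusted p = 0.237). Its brightest probe set, 1428288_at, differed by 0.06 with overlapping ranges, so the probe sets of Klf9 were not alike.

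**Figure D5:**
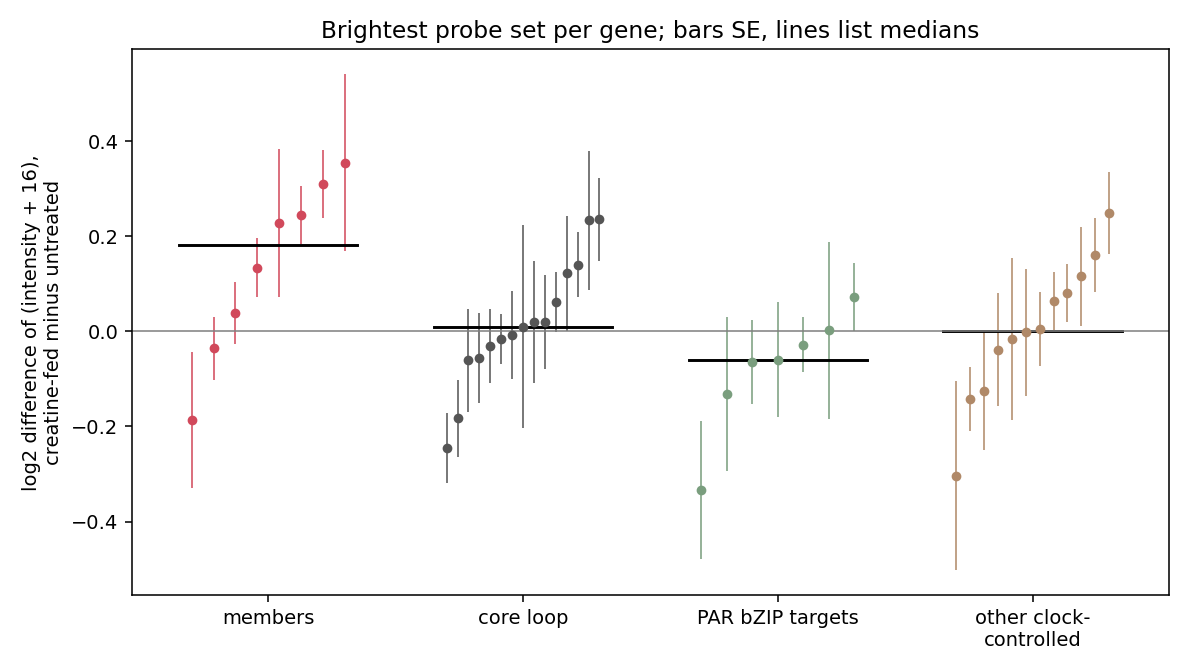
Log2 difference of (intensity + 16), creatine-fed minus untreated, with SE, 1 point per gene at its brightest probe set, for the 8 members, 15 core loop genes, 7 PAR bZIP targets and 12 other clock-controlled genes, with the median of each list as a line. The medians are 0.18, 0.01, -0.06 and 0.00.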

How the data were processed

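The authors deposited 1 table of array intensities, on a linear scale in whole numbers, 1 per probe set and mouse. Its trimmed mean (2% off each end) was 150.05 on every array, the form of a global scaling. The submitters' processing notes name RMA, which returns log2 values, so the values contradict it, and the scaling tool is not given in the sources used here. Symbols came from the probe table, updated by Entrez ID. Members, lists and tests were chosen with earlier results of these data known. After 64 control probe sets were removed, log2(intensity + 16) was fitted with limma 3.58.1 (lmFit, eBayes; R 4.3.3) over 45037 probe sets without a filter, 2-sided, with Benjamini-Hochberg adjustment over all of them. Where a gene has several probe sets, the one with the highest mean stands for it. Genes named are the members at every probe set, up to 4 genes per clock list with the smallest p, and 3 genes most similar to Dbp, Hlf, Tef and Usp2. Pdxk, the other core genes listed, Klf9, Fkbp5, Ppara and dimmer probe sets of clock genes, Pcp2 and the marker genes were added after their values were seen. Correlations used 100000 permutations within groups. On simulated data of 45037 probe sets the fit for creatine-fed against untreated mice called 44% of 100 probe sets given a log2 change of 0.5 and 88% of another 100 given a change of 1, with 7.69% of calls false. The simulated noise was independent between probe sets, whereas the real values share the arrays' scaling and the make-up of each hemisphere. Changes under 0.5, the size of most member differences, were not simulated. The number of arrays limits the precision. Labels call the arrays biological replicates, and they were treated as separate mice. Alternatives were other offsets, a filter on dim probe sets, other scalings, other variance models, covariates, the replicate number as a block and leaving out mice; the cerebellar and brainstem covariates and the probe set ratio were chosen after seeing the data. Figures used matplotlib 3.10.9.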

Additional observations from a re-analysis of the deposited data

Results flagged for a closer look

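Each of the 44 groups of 6 or 7 values (22 probe sets, 2 groups) was checked for a mouse far from its nearest neighbour relative to the group's range, on the log2 scale. Chance alone marks about 1 in 20 such groups, and 5 were marked here, 4 of them at Rora. At Rora 1436326_at creatine-fed replicate 4 read 111 where the next lowest creatine-fed mouse read 310. At Rora 1424034_at creatine-fed replicate 1 read 609 and the next highest 545. Untreated replicate 3 read 589 at Rora 1455165_at, with 838 next, and 38 at Rora 1458145_at, with 62 next. At the very dim Bhlhe41 1457096_at untreated replicate 3 read 4 and the next highest untreated mouse 2. Creatine-fed replicate 4 and untreated replicate 3 were the mice with the lowest summed cerebellar markers, 5406 and 2348, and the part of those markers in the marked values was not tested beyond the correlations given for Rora.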

How the results depend on the processing

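Over all probe sets limma called 4. It called 137 among the 22519 brightest, 161 with eBayes trend and robust, 36 with an offset of 50, 13 with array weights, 2 after quantile normalization, 2 without creatine-fed replicate 2 and untreated replicate 3, 1 when brainstem markers were a covariate, and 0 at an offset of 1. Leaving out 1 mouse gave 0 to 6, with 0 when creatine-fed replicate 3 or 5 or untreated replicate 2, 3, 4, 5 or 6 was the mouse left out and 2 when it was untreated replicate 7. Of the 22 member probe sets 0 were called, except 1, Hlf 1434736_at, among the brightest and 1 with trend and robust; leaving out 1 mouse gave 0. Same-numbered mice did not deviate together (correlations from -0.06 to 0.15), and they share only a number; with it as a replicate block limma called 0 probe sets, members included. Groups were apart at 1 member probe set, and at 1 to 2 when 1 mouse was left out: Dbp 1438211_s_at separated without creatine-fed replicate 6 and Hlf 1434736_at without untreated replicate 1. The median over the 22 was 0.0535 without the pair creatine-fed 2 and untreated 3 (0.088 to 0.165 without 1 mouse). The count of 1 correlated pair was 0 after centring, after quantile normalization and with probe sets averaged per gene, and 0 (untreated 5) to 3 (creatine-fed 5) without 1 mouse. Direction turned at Tef 1424175_at (0.016) and Bhlhe41 1457096_at (0.024) after centring, at Bhlhe41 1457096_at (0.0082) and Rora 1441085_at (-0.025) without that pair of mice, at Rora 1455165_at (0.060) and 1458145_at (0.014) with brainstem markers and at Rora 1441085_at with the 3′/5′ ratio (-0.050) and without 1 mouse (lowest -0.052, highest 0.097). The cause was not tested. Dim intensities limit Nfil3, Bhlhe41 and some of Rora.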

Other observations

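Neuropeptide genes and other markers of the suprachiasmatic nucleus and hypothalamus, which hold the central clock, were measured for 7 of 8 listed genes. Their summed intensity ran from 918 to 1409 in creatine-fed and from 1076 to 1444 in untreated mice. Log2 differences were above 0 for 1 of the 7, where 41.5% of all genes were above 0, and none passed the adjusted p. Of the 6 below 0, Prok2 (-0.02) and Six6 (-0.01) were near 0 and read below the median of every array. Hcrt, the orexin gene, was picked after its values were seen and ran from 62 to 85 in creatine-fed and from 79 to 110 in untreated mice (log2 difference -0.29 ± 0.09, limma adjusted p = 0.26). Vip, a peptide of clock neurons that the cortex also expresses, had the one difference above 0, 397 ± 43.1 in creatine-fed and 351 ± 79.3 in untreated mice (SD, n = 6 and 7), with overlapping ranges.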
